A study of Mus musculus with 45 samples.

Results

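The genes described here encode mitochondrial ribosomal proteins, and they were taken as every gene whose symbol in the probe annotation is Mrpl or Mrps followed by a number. The array held 67 probes with 1 such symbol, for 65 of its 13840 named genes (0.47%). Each gene was read from its brightest probe, by the mean over the 45 arrays, and no difference between diets or ages entered the choice. Only Mrpl49 and Mrps33 had a second probe. By role, 43 of the genes encode proteins of the large ribosomal subunit and 21 proteins of the small subunit. Of these, 38 have a counterpart in the bacterial ribosome and 26 are found only in mitochondria. The remaining gene, Mrps36, carries a ribosomal symbol, but its protein is now described as a part of the alpha-ketoglutarate dehydrogenase complex of the TCA cycle (Kgd4).

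Mitochondria hold ribosomes of their own, which translate the few proteins that mitochondrial DNA encodes, in mammals all of them subunits of the respiratory chain and the ATP synthase. The ribosomal RNAs come from mitochondrial DNA, whereas every ribosomal protein is encoded in the nucleus, translated in the cytosol and imported. In fat, mitochondria are most abundant in brown adipocytes, the heat-producing cells marked by the uncoupling protein Ucp1, which arise in the inguinal depot of the young mouse around weaning.

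RNA was taken from inguinal fat of male C57BL/6J mice that had met 1 of 3 diets during lactation. Their ages were day 5, day 10 and day 21, and day 56 and day 112 for adults. Control litters had 8 pups, and their dams fed freely on a breeder diet with 22 kcal% fat. LUN litters also had 8 pups, but their dam was restricted to 50% of what a Control dam ate. LON litters had 4 pups, and the dam ate a diet with 58 kcal% fat. All groups then shared a chow with 11 kcal% fat until 8 weeks of age, followed by a high fat diet for 8 weeks. Only the animals of day 112 had been given a high fat diet after weaning. Each of the 15 groups was 1 RNA pool of 12 mice measured on 3 arrays. The p-values therefore measure the spread between arrays of a pool and hold no variation between mice.

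All values below are normalized signals, in the arbitrary units of the scanner, or log2 differences between them. A gene was called when its limma p-value, adjusted over all 33012 probes, was below 0.05. The raw median signal of an array ranged from 545 to 1459. Arrays of 1 pool correlated with each other at 0.805 to 0.961, averaged for each array, and array 2 of Control at day 112 was the lowest. On that array the 65 genes deviated from the other arrays of the pool by 0.92 on the log2 scale on average, compared with 0.20 to 0.34 in 11 of the groups. The corresponding deviation was 0.74 on array 3 of LON at day 21, 0.66 on array 3 of LUN at day 5 and 0.65 on array 1 of LON at day 56, and these 4 arrays are named below where a result rests on them.

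The arrays can also be read for the tissue that was dissected. Adipocyte transcripts were present in every pool: the summed signal of 7 measured adipocyte markers lay between 673 and 2520 (summed signals are in units of 1000). The summed signal of 9 skeletal muscle markers, however, ran from 99.7 to 4120, and was 2780 to 3350 in Control at day 21 and 125 to 135 in Control at day 56. The 6 markers of mammary and skin epithelium summed to 83.3 to 96.4 in LON at day 5 and to 7.96 to 11.1 in Control at that age. Bulk RNA does not tell fewer cells of a type from less RNA per cell, and the part of these cell types in the results below was not tested. In the counts of brown adipocyte markers below, higher and lower mean called by limma with adjustment.

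Transcripts of mitochondrial ribosomal proteins were among the brighter signals of the array. Their median mean log2 signal was 15.15, against 9.56 for all probes, with 63 of the 65 genes above the median probe and 58 in the top 25% of probes. Because of this, 2231 named genes, those brighter than the lower quartile of the 65 (48 of the 65 among them), are given as a background beside all probes. Of these bright genes, 0.0448% to 3.54% were called in a given direction in the comparisons of LUN with Control and 0.403% to 4.17% in those of LON. Shares for arrays without overlap were taken over all probes only, most of which are dimmer than the 65 genes. Across the 15 group means a mitochondrial ribosomal protein gene spanned a median of 1.13 on the log2 scale, against 1.37 for those 2231 genes. The narrowest span was 0.61 (Mrpl1, of the large subunit stalk) and the widest 3.83 (Mrpl21, one of the dimmest of the list).

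With quantile normalization, the median course of the list over age differed between the pools of the 3 diets. For each array the median deviation of the 65 genes from their own means was taken. In Control mice it was 0.01 ± 0.07 at day 5 and -0.09 ± 0.11 at day 10, reached 0.29 ± 0.07 at day 21, and was 0.17 ± 0.06 at day 56 and 0.01 ± 0.17 at day 112 (log2, mean ± SD of 3 arrays of 1 pool). With median scaling of the arrays in place of quantile normalization the Control peak lay at day 56 (0.36) and not at day 21 (-0.11), where the bright genes as a whole then stood at -0.37. In LUN mice the highest value came later, with 0.19 ± 0.01 at day 21 and 0.34 ± 0.07 at day 56. It was at day 56 with median scaling too (0.21), so that Control and LUN then peaked at the same age. In LON mice the medians were the lowest of the 3 diets at 4 of the 5 ages, being -0.20 ± 0.06 at day 10 and 0.08 ± 0.08 at day 21, and then -0.17 ± 0.05 for day 56 and -0.26 ± 0.06 for day 112, though with median scaling the last was the highest of its age (0.06). The pooled SD of these medians was 0.10. At those 4 ages no array of LON overlapped the arrays of LUN, whereas LON and Control overlapped at day 10.

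**Figure D1:**
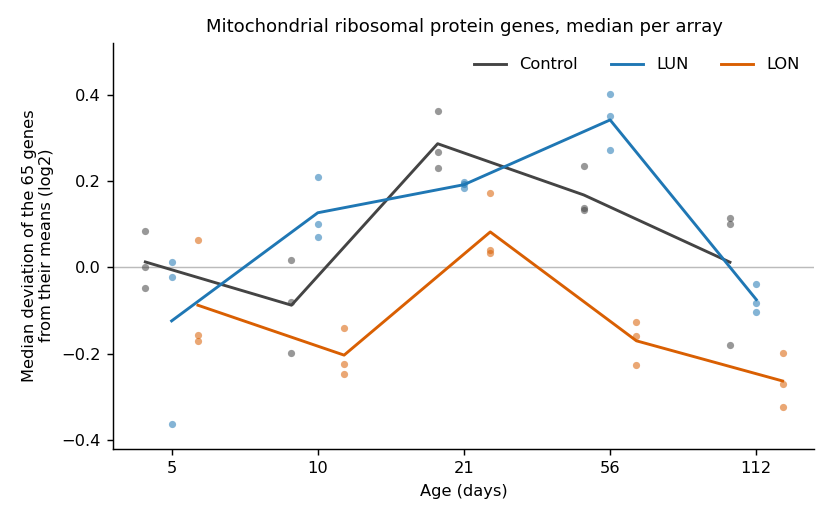
Median deviation of the 65 genes from their means over all arrays (log2, vertical axis) at each age (days, spaced evenly); points are the 3 arrays of a pool and lines join the pool means. With the quantile normalization shown, Control peaks at day 21 (0.29; with median scaling at day 56), LUN peaks at day 56 (0.34), and LON is lowest from day 10 on (with median scaling not at day 112).

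The highest age was also counted gene by gene, with quantile normalization. In Control, 34 of the 65 genes had their highest mean at day 21, 13 at day 112 and none at day 10. In LUN, 36 had it at day 56 and 14 at day 21. In LON, 29 had it at day 21 and 22 at day 5. By subunit, in Control 20 of the 43 large subunit genes and 13 of the 21 small subunit genes peaked at day 21, and in LUN 25 and 11 of them peaked at day 56. Of 57 cytosolic ribosomal protein genes, which encode the ribosome outside mitochondria, 24 peaked at day 21 in Control but only 2 at day 56 in LUN. Of 26 complex I subunits, 20 peaked at day 21 in Control and 13 at day 56 in LUN. Peak counts for lists of different signal are a description and were not tested.

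**Figure D2:**
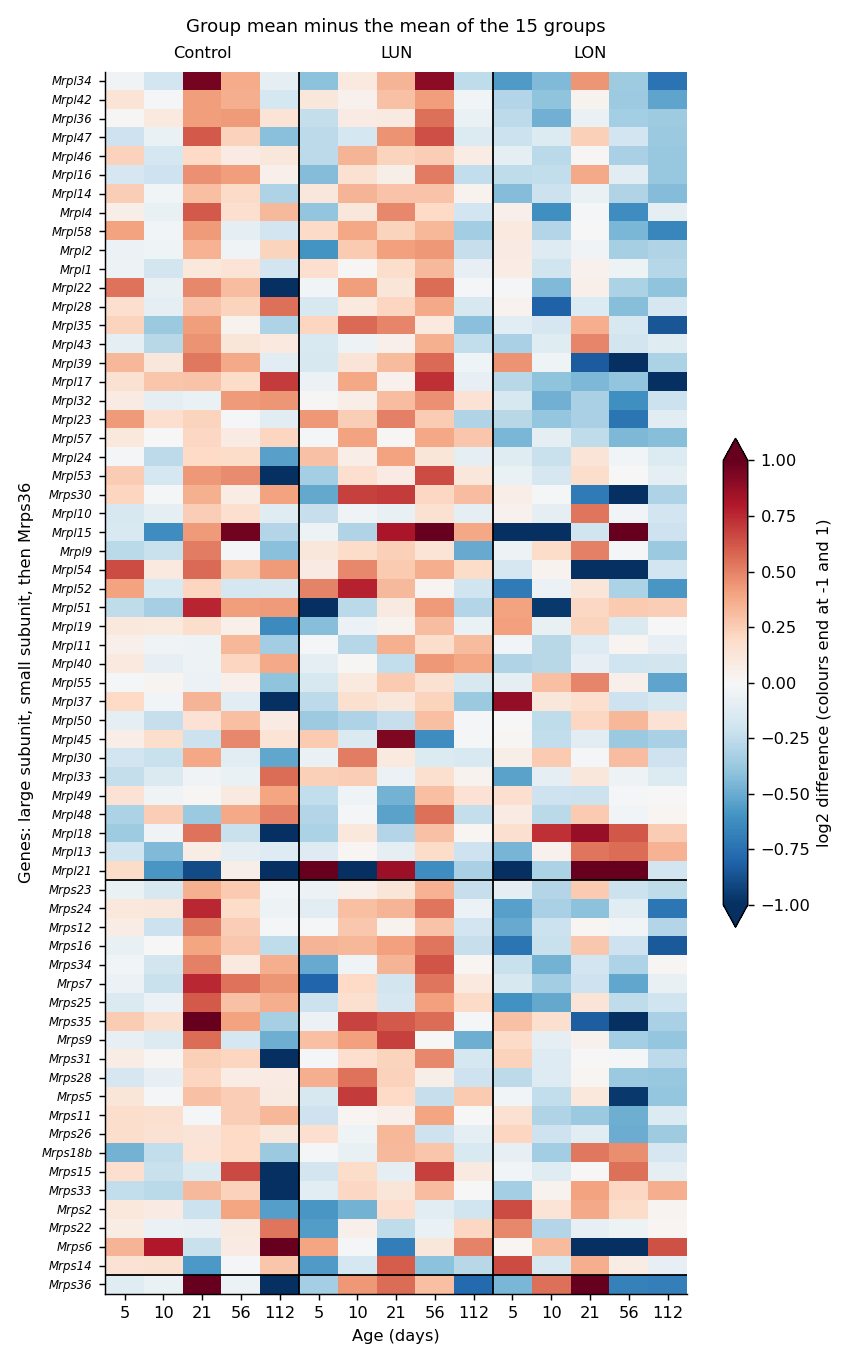
Mean log2 signal of each of the 65 genes (rows, within a subunit ordered by correlation with the median course of the others) in the 15 groups (columns, age in days within Control, LUN and LON), minus the mean of the gene over the groups. With the quantile normalization shown, 34 genes are highest at day 21 in Control and 36 at day 56 in LUN, and blue prevails in LON at days 56 and 112; rows near the foot of each subunit do not share the course.

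Mrpl34, the large subunit counterpart of bacterial L34, was the gene of the list called most often, in 7 of the 19 comparisons, which share groups. Its group means spanned 1.70 on the log2 scale, less than those of Mrpl21 (3.83), Mrps35 (3.71) or Mrps36 (2.69). In Control mice its normalized signal was 48400, 39100 and 48280 at day 5, 40730, 43660 and 36880 at day 10, 91550, 88670 and 88870 at day 21, 67300, 56510 and 55610 at day 56, and 45430, 43300 and 40810 at day 112. The 3 arrays of day 21 stood above the arrays of every other Control age. In LUN mice the signals were 52720, 49570 and 46070 at day 10, 52960, 64670 and 57950 at day 21, 84600, 101200 and 73360 at day 56, and 34870, 40190 and 41260 at day 112, so that the highest arrays were those of day 56. In LON mice they were 38220, 34640 and 29710 at day 10, 57790, 62510 and 67870 at day 21, 34160, 35410 and 38780 at day 56, and 28120, 24390 and 30890 at day 112. Day 21 was again the highest age, at signals below those of Control at day 21 without overlap.

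The rise of Mrpl34 at day 21 over the mean of days 10 and 56 was 0.87 ± 0.14 in Control (log2 ± SE, limma adjusted p = 0.000119) and 0.84 ± 0.14 in LON (limma adjusted p = 0.000366), and both were called without any 1 array but not with median scaling (0.15 and 0.65, limma adjusted p = 0.757 and 0.302). Fitted on only the arrays compared, the rise in LON was not called (limma adjusted p = 0.22). Between LUN and Control this rise differed by -1.03 ± 0.20 (limma adjusted p = 0.00235), the only called difference of that kind among the 65 genes. Of all probes 0.666% were called lower and 1.13% higher, and of the bright genes 1.88% lower. The difference in Mrpl34 was called without any 1 of the 18 arrays in turn, but not with median scaling of the arrays (-0.28, limma adjusted p = 0.699). At day 21 itself Mrpl34 was lower in LUN than in Control by -0.62 ± 0.16 (limma adjusted p = 0.0262). That call was lost without any 1 array of Control, and without array 1 or 3 of LUN, the adjusted p being 0.0582 to 0.126, and with median scaling (-0.30, limma adjusted p = 0.752).

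Mrps36, the dehydrogenase-associated protein, had the largest rise among the genes called at day 21 in Control and in LON. Its signal in Control was 113400, 105500 and 95340 at day 10, 239200, 234300 and 291300 at day 21, and 112300, 94530 and 108600 at day 56. In LON it was 178200, 140700 and 164300 at day 10, 258800, 306400 and 307700 at day 21, and 63870, 64980 and 77000 at day 56. The arrays of day 21 were the highest in both diets, with no overlap. In LUN the values of day 21 were 201400, 144700 and 144700, which overlapped those of day 10 (145800, 136500 and 163400) and day 56 (155600, 133900 and 117400). The rise was 1.28 ± 0.34 in Control (limma adjusted p = 0.0239) and 1.47 ± 0.34 in LON (limma adjusted p = 0.0165). Without any 1 array of day 21 the adjusted p was 0.0597 to 0.0906 in Control and 0.0507 to 0.101 in LON, and with median scaling the rises were 0.63 and 1.30 (limma adjusted p = 0.382 and 0.229). At day 112 the Control arrays gave 11910, 98240 and 77990, so that array 1 of this pool read far below the other 2.

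**Figure D3:**
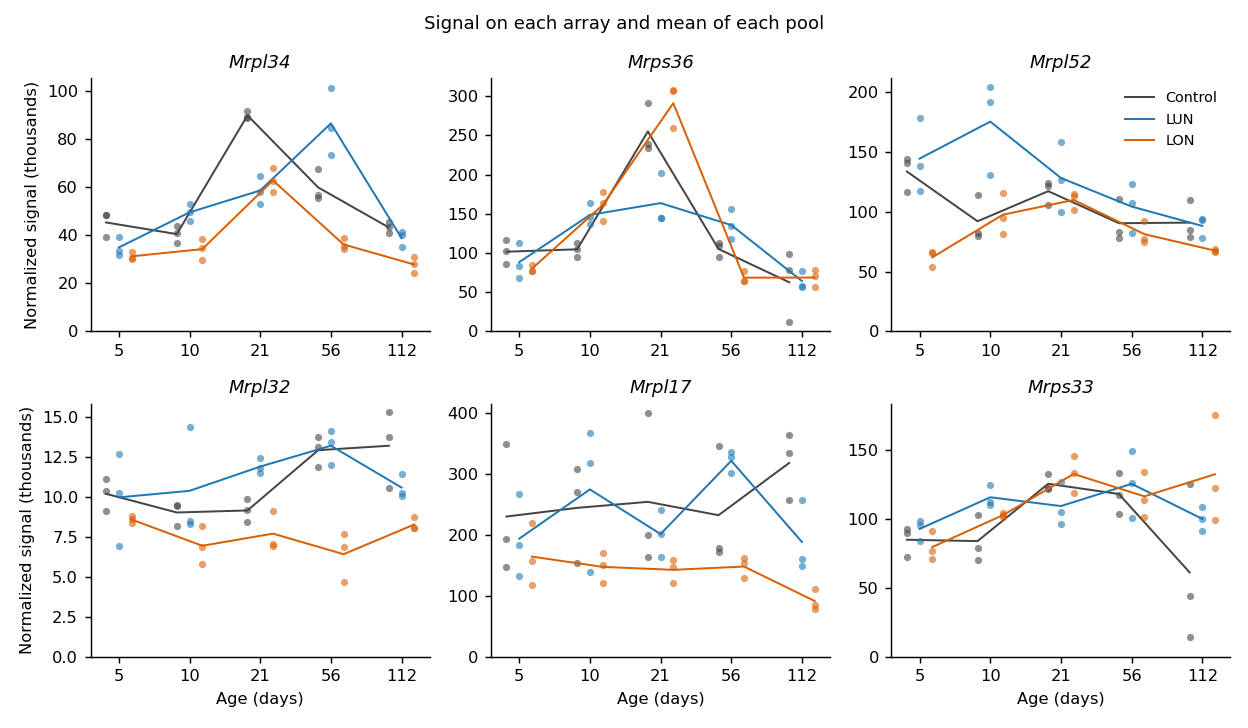
Normalized signal (in units of 1000, arbitrary scale) of 6 genes at each age (days) by diet; points are the 3 arrays of each pool and lines join pool means. With the quantile normalization shown, Mrpl34 and Mrps36 peak at day 21 in Control and LON, Mrpl52 is below Control in LON at day 5 and Mrpl32 at day 56, Mrpl17 is below Control in LON at day 112, and Mrps33 is split between the Control arrays of day 112.

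At the Control peak of day 21 against the mean of days 10 and 56, 4 of the 65 genes were called higher and none lower, where 1.52% of all probes were called higher and 2.23% lower, and 4.35% of the 2231 bright genes higher. Besides Mrps36 and Mrpl34 these were Mrpl9, a large subunit protein (0.63 ± 0.14, limma adjusted p = 0.00818), and Mrpl4 (0.56 ± 0.16, limma adjusted p = 0.0456). The Mrpl9 signals of day 21, 43110, 49600 and 41660, lay above those of day 10 (27790, 25940 and 27040) and day 56 (30850, 29360 and 32590) without overlap, and the call was lost without the second array (limma adjusted p = 0.0778). Mrpl4 was not called without array 1 or 2 of day 21, or without any 1 array of days 10 and 56 (limma adjusted p = 0.0605 to 0.23). The median of the 65 genes was 0.25, with 50 above 0, but with median scaling it turned to -0.38, Mrpl9 stood at -0.021, and 5 genes were called lower and none higher. The 2231 bright genes then stood at -0.67. Without overlap, 13 genes were higher on all arrays of day 21 than on all arrays of days 10 and 56 and 1 was lower, against 3.67% and 5.18% of all probes. Without array 2 of day 21 there was 1 called gene. The 65 genes lay 0.28 above the bright genes with quantile normalization and 0.29 above them with median scaling. The 9 muscle markers were all higher in this comparison (median 4.38), as were 7 of the 13 brown adipocyte markers (median 1.67).

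The same comparison in LON gave 3 higher genes and none lower (0.582% of all probes higher, 0.521% lower, and 2.96% of the bright genes higher). These were Mrps36, Mrpl34 and Mrpl10, the protein that anchors the stalk of the large subunit (0.60 ± 0.13, limma adjusted p = 0.0139). Mrpl10 gave 66420, 50740 and 71180 at day 21, above every LON array of days 10 and 56 (36140 to 47660), but it was not called without array 1 (limma adjusted p = 0.0996) or array 3 (limma adjusted p = 0.17). The median of the 65 was 0.25, with 55 above 0, and 11 did not overlap upward and 0 downward (2.23% and 1.51% of all probes). Here 7 of the 9 muscle markers were lower (median -1.56), and 7 of the 13 brown adipocyte markers were higher (median 1.68). Without array 1 or array 3 of day 21 the called gene was Mrpl34 alone. With median scaling no gene was called and the median was 0.11.

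In LUN no gene of the list was called higher at day 21. The median was -0.07, 24 genes lay above 0, and 1 gene was called, downward (2.34% of all probes higher, 1.86% lower, and 5.51% of the bright genes lower). It was Mrpl49, a large subunit protein without a bacterial counterpart, with 24630, 23220 and 23700 at day 21 against 32610, 31940 and 31730 at day 10 and 44420, 40480 and 37650 at day 56. Its 3 arrays of day 21 were the lowest of the 15 LUN arrays, and the difference was -0.60 ± 0.14 (limma adjusted p = 0.00806), called without any 1 array, though not with median scaling (-0.56, limma adjusted p = 0.185) or when only the arrays compared were fitted (limma adjusted p = 0.179). Its second probe gave -0.31 ± 0.17 (limma adjusted p = 0.402). Without array 3 of day 21 there were 2 called genes. The median difference of the rise between LUN and Control was -0.32, with 52 of the 65 genes below 0, but it turned to 0.36 with median scaling. In that comparison the 9 muscle markers were all lower (median -4.66), and so were 4 of the 13 brown adipocyte markers. Relative to the bright genes, which stood at 0.70 with median scaling, the median was -0.34 with it and -0.29 with quantile normalization.

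Single members of the list were called between LUN and Control at 2 ages. At day 10 the genes were shifted upward in LUN (median 0.19, 51 of 65 above 0), or downward with median scaling (median -0.29, the bright genes at -0.50). With quantile normalization 26 had all LUN arrays above all Control arrays and 2 the reverse, against 8.95% and 12.6% of all probes. Only Mrpl52 was called, with 0.573% of all probes called higher and 0.818% lower. Mrpl52, a large subunit protein found only in mitochondria, gave 191600, 130900 and 204200 in LUN and 114500, 82340 and 79780 in Control, which did not overlap. The difference was 0.92 ± 0.22 (limma adjusted p = 0.0204), with an adjusted p of 0.0893 to 0.137 when array 2 or 3 of Control or array 1 or 3 of LUN was left out, and 0.463 with median scaling (0.49). The 9 muscle markers were all higher in LUN at this age (median 2.24).

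At day 21 the median was -0.16, with 42 of 65 genes below 0 in LUN, but 0.14 with median scaling, and Mrpl34 was the 1 called gene (1.57% of all probes higher, 1.14% lower). For 18 genes the LUN arrays were all below the Control arrays and for 3 above, against 8.95% and 10.6% of all probes. The 4 members of the list that the study itself gives as suppressed at this age were selected on these same arrays, and are therefore no independent evidence of a direction. Their differences were -0.65 ± 0.39 for Mrps36, -0.40 ± 0.22 for Mrpl43, -0.40 ± 0.17 for Mrpl16 and -0.27 ± 0.17 for Mrpl9 (0.001 with median scaling), and none was called (limma adjusted p = 0.281 to 0.512). The study prints larger Control to LUN ratios for each of the 4. For Mrpl16 and Mrps36 every Control array lay below the Control mean that the study prints, while its LUN mean lay within the LUN arrays. The reason for this gap was not tested. By the methods' t-test without adjustment Mrpl16, Mrps36 and Mrpl9 passed and Mrpl43 did not, where 11.7% of all probes passed in either direction. The Mrpl16 arrays did not overlap (33960, 30410 and 33940 in LUN, 44000, 46110 and 39550 in Control). Without these 4 genes the median was -0.14, and without array 2 of Control that of all 65 was -0.07. The 8 muscle markers called at this age were all lower in LUN, and 3 of the 13 brown adipocyte markers were called lower, Fabp3 (-2.37), Ucp1 (-2.26) and Ppara (-1.10). Outside these 3, Cox8b, Cidea and Plin5 had their highest mean of the 15 groups in Control at day 21. The 13 markers summed to 2000 to 2220 in LUN and to 3730 to 4500 in Control at this age. Another of the 13, Ppargc1a, went the other way, with its highest mean of the 15 groups in LUN at day 21 (log2 signal 14.02).

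At days 5, 56 and 112 no gene of the list was called between LUN and Control, by limma with adjustment. At an unadjusted limma p under 0.05, 3 genes were higher and 8 lower at day 5 (5.85% and 7.3% of all probes), 4 and 1 at day 56 (3.44% and 4.5%), and 5 and 5 at day 112 (7.92% and 6.44%). By the unadjusted t-test that the methods name, the counts were 4 and 5, 6 and 1, and 1 and 4, where 9.3%, 6.49% and 7.52% of all probes passed in either direction. With adjustment over all probes by limma, 0.554% were called higher and 0.86% lower at day 5, 0.161% and 0.0424% at day 56, and 0.176% and 0.376% at day 112. The medians of the 65 genes were -0.13, 0.13 and -0.08, and with median scaling 0.16, -0.18 and 0.05. At day 56, 51 of 65 genes were above 0 and 13 were higher and 2 lower without overlap (5.03% and 7.93% of all probes). Without overlap 5 were higher and 10 lower at day 5 (8.5% and 9.42% of all probes), and 2 and 8 at day 112 (9.47% and 6.48%). The value of day 5 was -0.06 without array 3 of LUN, and that of day 112 was -0.15 without array 2 of Control and 0.007 without array 1. At day 112, 6 genes were called without array 3 of Control and 4 without array 1. Of the 9 muscle markers 8 were higher in LUN at day 56 and all 9 lower at day 112.

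Most of the calls between LON and Control fell at days 56 and 112. LON arrays differed from the others in label style and in the median of the authors' values. Any difference in handling cannot be told apart from the diet in these comparisons. At day 56 the median of the 65 genes in LON was -0.40 relative to Control, 54 genes were below 0, and 34 had all LON arrays below all Control arrays with 2 above, against 13.2% and 7.54% of all probes. Called genes were 4, all lower (0.881% of all probes lower, 0.654% higher, and 2.87% of the bright genes lower), and all 4 were large subunit proteins with bacterial counterparts. The shift was not confined to that class. Here the median deviation was 0.15 in Control and -0.15 in LON for large subunit genes, and 0.22 and -0.19 for small subunit genes. It was 0.17 and -0.18 for genes with a bacterial counterpart, and 0.17 and -0.15 for those found only in mitochondria. Mrpl32, which is matured by the m-AAA protease before it joins the large subunit, gave 4687, 6884 and 7707 in LON and 13160, 13770 and 11890 in Control (-1.04 ± 0.22, limma adjusted p = 0.00775). Mrpl36 gave 6595, 9055 and 7588 against 13570, 12580 and 13100 (-0.77 ± 0.16, limma adjusted p = 0.0091). Mrpl4 gave 6980, 7608 and 9377 against 14410, 13670 and 13080 (-0.79 ± 0.19, limma adjusted p = 0.0244). For Mrpl34, whose signals are given above, the difference was -0.72 ± 0.16 (limma adjusted p = 0.0136). In none of the 4 did the arrays of the pools overlap. All 3 arrays of LON deviated at this age, by 0.65, 0.57 and 0.51 for the 65 genes. Array 2 had the lowest correlation with its pool (0.883, against 0.891 for array 1). Without array 1 no gene of the list was called, while the median was -0.34 and 54 genes were below 0. Without array 2 of LON, 8 genes were called. Without array 1 of Control, Mrpl34, Mrpl36 and Mrpl4 lost the call (limma adjusted p = 0.0549 to 0.108), and Mrpl4 did so without array 2 or 3 as well (limma adjusted p = 0.0754 and 0.0642). With median scaling Mrpl32, Mrpl34 and Mrpl36 were called, Mrpl4 was not (limma adjusted p = 0.0605), and the median was -0.65. The 9 muscle markers were all higher in LON at day 56 (median 5.14), and 2 of the 13 brown adipocyte markers were called lower, Fabp3 (-1.49) and Ucp1 (-0.97).

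At day 112, after 8 weeks of high fat diet in both groups, the median in LON was -0.35 (0.10 with median scaling), with 43 genes below 0 and 22 lower without overlap, against 7.42% of all probes (2 higher without overlap, 13.7% of all probes). Called genes were 2 lower and 1 higher, with 0.897% of all probes lower and 1.48% higher. Mrpl17, a large subunit protein at the exit of the peptide tunnel in bacteria, gave 110800, 78250 and 84910 in LON and 256000, 333100 and 363600 in Control. This was the largest fall of a called gene between diets (-1.80 ± 0.37, limma adjusted p = 0.00551), and it was called without any 1 of the 6 arrays and with median scaling (-1.24, limma adjusted p = 0.0445), but not when only the arrays compared were fitted (limma adjusted p = 0.168) or by the methods' t-test with adjustment (adjusted p = 0.156). The LUN pool of this age gave 159700, 148400 and 256000, above every LON array, with the highest array equal to the lowest of Control. Mrpl34 was lower in LON by -0.64 ± 0.16 (limma adjusted p = 0.0268), a call lost without array 2 of Control or array 1 or 2 of LON (limma adjusted p = 0.0754 to 0.163) and with median scaling (limma adjusted p = 0.697).

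The 1 higher gene, Mrps33 of the small subunit, rested on the Control pool, whose arrays gave 43880, 14380 and 125500, against 122500, 175600 and 99350 in LON. The pools overlapped. The difference was 1.58 ± 0.37 (limma adjusted p = 0.0159) and fell to 0.80 without array 2 of Control (limma adjusted p = 0.209). The second probe of Mrps33, which is dimmer, gave 0.07 ± 0.61 in the same comparison. Without array 2 of Control the median of the 65 genes was -0.46, 51 genes were below 0 and only Mrpl17 was called, while 10 genes were called without array 3 of Control and 7 without array 1. With median scaling, under which the bright genes stood at 0.53, 2 genes were called higher and 1 lower. The 9 muscle markers were all lower in LON (median -4.39), and 3 of the 13 brown adipocyte markers were called lower, Fabp3 (-3.83), Ppara (-0.97) and Ucp1 (-0.93). Cox7a1, outside these 3, had its lowest mean of the 15 groups in this LON pool (log2 signal 13.20). Others of the 13 went the other way. Dio2 had its highest mean of the 15 groups in this LON pool (log2 signal 9.49), and Cpt1b its lowest in this Control pool (9.55).

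The early ages of LON held 1 call. At day 5, Mrpl52 gave 66150, 65880 and 54150 in LON and 144200, 140700 and 116600 in Control, with no overlap. It was lower by -1.11 ± 0.22 (limma adjusted p = 0.00285), without any 1 array as well, but not with median scaling (-0.60, limma adjusted p = 0.363) or when only the arrays compared were fitted (limma adjusted p = 0.145), where 0.703% of all probes were called lower and 1.06% higher. Mrpl52 was thus low in LON at day 5 and high in LUN at day 10, relative to Control of the same age. Without array 1 of Control, 2 genes were called at day 5. The medians of LON were -0.11 at day 5 (0.34 with median scaling), -0.13 at day 10 (-0.46) and -0.22 at day 21 (-0.03). Leaving out 1 array moved that of day 10 from -0.19 to -0.03, the latter without array 1 of Control. No gene was called at days 10 and 21 by limma with adjustment (0.0788% and 0.485% of all probes lower, 0.66% and 0.918% higher). At an unadjusted limma p under 0.05 there were 4 lower and 1 higher at day 10 (2.77% and 3.23% of all probes), and 15 lower and 1 higher at day 21 (6.53% and 6.57%). By the methods' unadjusted t-test there were 8 and 4, and 13 and 0, where 10.4% and 8.78% of all probes passed in either direction. Without overlap, 6 genes were higher in LON at day 5 and 15 lower (12.7% and 9.17% of all probes), and 4 and 11 at day 10 (8.1% and 9.52%). Likewise, 21 genes were lower in LON at day 21 and 1 higher, against 7.96% and 8.84% of all probes. Without array 2 of Control the median of day 21 was -0.10. Of the 9 muscle markers 1 was lower in LON at day 5, all 9 were higher at day 10 and 8 were lower at day 21, and 3 of the 6 epithelium markers were higher at day 5.

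**Figure D4:**
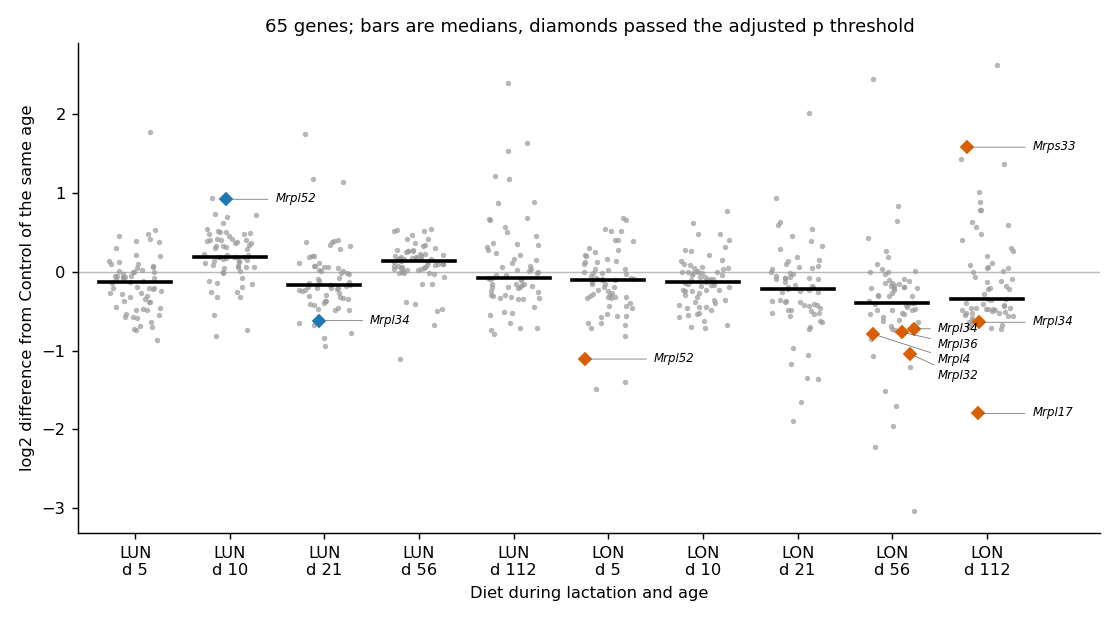
log2 difference from Control of the same age for each of the 65 genes (points) in LUN and LON at 5 ages; bars are medians and labelled diamonds are the genes with an adjusted limma p below 0.05. With the quantile normalization shown, medians lie between -0.40 (LON, day 56) and 0.19 (LUN, day 10), and 7 different genes are labelled; with median scaling 7 of the 10 medians change sign.

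Taking the pools as the replicates, so that age is a term and 15 pool means enter, the median of the 65 genes was 0.03 for LUN and -0.23 for LON over the 5 ages. The value for LUN turned to -0.02 without array 2 of Control at day 112. In LON 46 of the 65 genes were below 0. No gene was called in either by limma with adjustment. At an unadjusted limma p under 0.05 there were 20 lower and 1 higher in LON (7.19% and 6.54% of all probes), and 0 in LUN (3.36% and 3.04%). With adjustment, 0.2% of all probes were called higher in LON and 0.0151% lower. In LUN 0% of all probes were called in either direction.

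The change from day 56 to day 112, over which the mice ate the high fat diet, was downward in 2 of the diets. Age and the change to the high fat diet cannot be told apart in this comparison. In LUN the median was -0.41, 56 genes were below 0, and 37 were lower on all arrays of day 112 than on all arrays of day 56 with 2 higher, against 9.65% and 10.7% of all probes. Called genes were 6, all lower (1.34% of all probes lower, 1.32% higher, and 4.17% of the bright genes lower). Mrpl34 fell the most, by -1.15 ± 0.16 (limma adjusted p = 1.51e-05), and was called without any 1 array and with median scaling, but not when only the arrays compared were fitted (limma adjusted p = 0.218) or by the methods' t-test with adjustment (adjusted p = 0.121). The other 5 were Mrpl47, Mrps16, Mrpl16, Mrpl9 and Mrpl36, with differences between -0.78 and -0.62. Mrps16, of the small subunit, gave 76820, 76820 and 71720 at day 112 and 133900, 136500 and 115300 at day 56. Mrpl16, which lies by the peptidyl transferase centre in bacteria, gave 23930, 27860 and 27680 against 47870, 45030 and 41760. Neither pair of pools overlapped. Each of these 5 lost its call without at least 2 of the 6 arrays, and all 5 lost it with median scaling (limma adjusted p = 0.181 to 0.422). Without array 1 of day 112 there was 1 called gene, and without array 3 of day 56 there were 8. With median scaling the median was -0.29. Of the 9 muscle markers 8 were lower (median -1.26), as were 6 of the 13 brown adipocyte markers (median -1.23).

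In Control the median change was -0.29, with 43 genes below 0 and 19 lower without overlap (11.9% of all probes) and 3 higher (6.86%). Called genes were 3, all of the small subunit and all lower (1.83% of all probes lower, 1.54% higher, and 5.24% of the bright genes lower). They were Mrps15 (-2.11 ± 0.54, limma adjusted p = 0.0225), Mrps33 (-1.45 ± 0.37, limma adjusted p = 0.0225) and Mrps2 (-0.95 ± 0.27, limma adjusted p = 0.045). The median deviation fell in both subunits, from 0.15 to 0.01 for large and from 0.22 to 0.02 for small subunit genes. Mrps15 gave 29310, 1571 and 32070 at day 112 and 39550, 58270 and 51760 at day 56. Array 2 of day 112 alone carried the size of the Mrps15 and Mrps33 differences, which were -0.69 (limma adjusted p = 0.145) and -0.67 (limma adjusted p = 0.332) without it, and Mrps2 was -0.72 (limma adjusted p = 0.306). Leaving it out moved the median to -0.11, and 1 gene, none of these 3, was then called, while 10 were called without array 3 of day 112 and 9 without array 1. In LON the change over these ages had a median of -0.06 (0.31 with median scaling) and no gene was called by limma with adjustment (1.5% of all probes higher, 0.812% lower). At an unadjusted limma p under 0.05 there were 5 higher and 8 lower (7.57% and 6.41% of all probes), and by the methods' unadjusted t-test 2 and 6 (13.5% of all probes in either direction), and without array 2 of day 56 limma called 6 genes. Without overlap 5 genes were higher and 10 lower (15.1% and 8.19% of all probes). The 9 muscle markers were all higher in Control over the same ages (median 4.44), and 8 of 9 were lower in LON (median -5.13). Of the 13 brown adipocyte markers 5 were lower in Control (median -0.84), Ucp1 by -5.82, and 5 in LON (median -1.13), Ucp1 by -5.78.

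The normalization sets the zero of every one of these medians. With median scaling, which leaves the bright end of each array free to move, the sign of the median turned at all 5 ages in LUN and at days 5 and 112 in LON, and the bright genes as a whole stood between -0.50 and 0.53 in the comparisons of diets. Relative to the 2231 bright genes the 65 genes kept their sign in all 10 comparisons of diets under quantile normalization, its offset form, cyclic loess, median scaling and the values that the authors normalized. Part of this is built in: a shift of a whole array, as in median scaling, cancels in the relative medians. Quantile normalization, its offset form and the authors' values are also forms of the same method. The relative medians in LUN were 0.20 to 0.27 at day 10 and -0.13 to -0.11 at day 21. In LON they were -0.23 to -0.18 at day 21, -0.34 to -0.28 at day 56 and -0.46 to -0.41 at day 112.

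**Figure D5:**
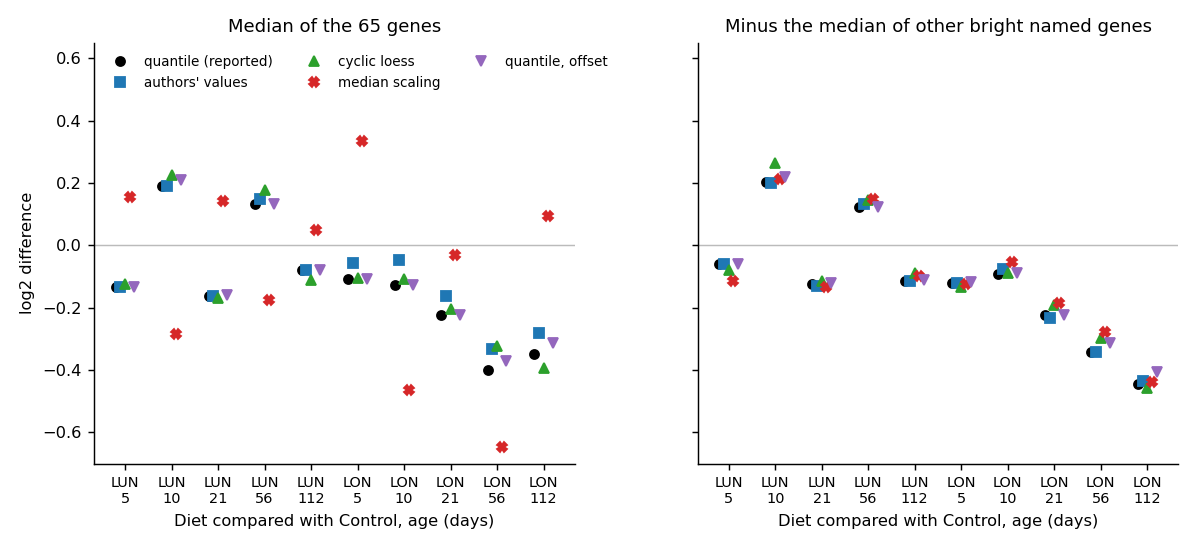
Median log2 difference of the 65 genes from Control (left) and the same minus the median of 2231 bright named genes (right), in LUN and LON at 5 ages (days), under 5 normalizations marked by symbol. On the left, median scaling (crosses) departs from the others and changes sign in 7 comparisons. On the right, where a shift of whole arrays cancels, the 5 values of each comparison share a sign.

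Within the list the genes differed in how closely they kept to the common course. The correlation of each gene with the median of the other 64, over the 15 group means, ran from -0.27 to 0.92 with a median of 0.55, and 36 genes were above 0.5 while 6 were below 0. These are descriptions, since the groups share their arrays and normalization between genes. The closest were Mrpl34 (0.92), Mrpl42 (0.91) and Mrps23 (0.89), the last 2 being proteins found only in mitochondria. The most remote were Mrpl21 (-0.27), Mrps14 (-0.16) and Mrps6 (-0.14).

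The remote genes were dim or uneven between arrays. Mrps14 ranged from 271.5 to 2639 over all arrays, and from 319.8 to 2639 within the LUN pool of day 112. Mrpl21 gave 41230, 300 and 1564 in LON at day 56, and 239.6, 243.4 and 18280 in LON at day 21. On the same 2 pools Mrps6, otherwise bright, gave 2443, 86540 and 74950, and 79880, 92750 and 4101. The array that was high for Mrpl21 was thus the array that was low for Mrps6. Both were among the 4 arrays named above for their deviation.

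Among all other named genes, those closest to the median course of the 65 were Psme2 (0.91), a proteasome activator, Ndufb7 (0.90), a complex I subunit, and Alkbh7 (0.89), a mitochondrial protein, each over 15 group means. With Ucp1, whose mean signal in Control went from 47110 at day 5 to 779500 at day 21 and 2253 at day 112, the correlation of the 65 genes had a median of 0.32. It was highest for Mrps36 (0.87), Mrpl55 (0.87) and Mrpl9 (0.84) and lowest for Mrps6 (-0.53). With Ogdh, the catalytic subunit of the alpha-ketoglutarate dehydrogenase complex, the correlation of Mrps36 was 0.75, which was not particular to it: Mrpl10 had 0.79, Mrpl9 0.75 and Mrpl43 0.71.

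The promoters of the 3 genes closest to the common course are shown because their transcripts moved together, and that of Mrps36 because it had the largest rise among the genes called at day 21, though its correlation with the common course was 0.55. They are RefSeq windows of GRCm38.p6, from 250 bases before to 50 bases after the annotated start, written 5′ to 3′ on the strand of the gene, with matches to searched motifs in capitals. The windows are chr8:71464676-71464975 (plus strand) for Mrpl34, chr10:95501900-95502199 (minus) for Mrpl42, chr11:88204138-88204437 (plus) for Mrps23 and chr13:100744610-100744909 (minus) for Mrps36.
Mrpl34: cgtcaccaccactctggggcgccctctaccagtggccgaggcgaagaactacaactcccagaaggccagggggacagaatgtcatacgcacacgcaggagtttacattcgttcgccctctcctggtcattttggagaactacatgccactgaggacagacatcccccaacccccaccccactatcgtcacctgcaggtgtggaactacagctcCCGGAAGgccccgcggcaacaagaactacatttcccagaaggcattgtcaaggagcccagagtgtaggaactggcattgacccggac
Mrpl42: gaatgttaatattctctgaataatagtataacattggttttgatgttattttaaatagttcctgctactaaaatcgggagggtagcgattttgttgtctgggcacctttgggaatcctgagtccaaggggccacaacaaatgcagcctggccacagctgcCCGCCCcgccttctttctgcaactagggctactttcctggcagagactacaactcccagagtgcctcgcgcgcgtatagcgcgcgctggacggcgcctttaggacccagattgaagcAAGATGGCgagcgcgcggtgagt
Mrps23: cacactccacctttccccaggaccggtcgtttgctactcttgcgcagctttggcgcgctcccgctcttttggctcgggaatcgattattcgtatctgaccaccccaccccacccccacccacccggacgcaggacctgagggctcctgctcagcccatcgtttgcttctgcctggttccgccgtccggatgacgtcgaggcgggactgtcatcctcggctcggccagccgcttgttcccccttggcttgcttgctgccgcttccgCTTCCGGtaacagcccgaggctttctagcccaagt
Mrps36: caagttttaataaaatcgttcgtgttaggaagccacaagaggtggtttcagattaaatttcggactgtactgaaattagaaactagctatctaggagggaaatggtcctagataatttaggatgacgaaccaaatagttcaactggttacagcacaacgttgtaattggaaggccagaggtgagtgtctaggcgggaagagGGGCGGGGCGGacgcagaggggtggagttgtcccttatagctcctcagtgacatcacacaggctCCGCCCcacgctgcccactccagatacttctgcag

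Motifs were searched on both strands as the letters GCGC, any base and TGCGC in a row (NRF1), CCGGAAG (GABP, an ETS factor), AAGATGGC (YY1), GGGCGG (Sp1) and TGACCTTG (ERR). The first 2 factors are known from other genes of mitochondrial proteins encoded in the nucleus. Mrpl34 held the GABP letters from 37 bases before its start, and Mrps23 held them on the opposite strand from 15 bases after it. Mrpl42 held the Sp1 letters from 90 bases before the start and the YY1 letters from 27 bases after it. Mrps36 held only Sp1 letters, at 3 places, 2 of them overlapping. A window was at hand for 57 of the 65 genes. Of these, 35.1% held the GABP letters, against 9.93% of all 27025 genes with a window. The corresponding shares were 17.5% and 5.19% for NRF1, 17.5% and 3.19% for YY1, 56.1% and 38.2% for Sp1, and 1.75% and 1.76% for ERR. The windows of the 65 genes were richer in G and C (median 58.7%, against 52.7% for all windows). A match of letters is not a bound site, and no test was made.

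Other parts of mitochondrial translation and respiration were read beside the list, from lists chosen with earlier results known. At the Control peak of day 21, 2 of 26 complex I subunits were called higher, Ndufs7 (0.97) and Ndufs8 (0.71), with a median of 0.41 for the list. Of 7 complex III subunits 2 were higher (median 0.81), and of 11 complex IV subunits 2 (median 0.73), among them Cox7a1 (2.36), an isoform of heart, muscle and brown fat. Among 57 cytosolic ribosomal proteins 2 were higher and the median was 0.13. In LON at day 56, 4 complex I subunits were called lower and none higher (median -0.47), with Ndufb11 (-2.18), Ndufa2 (-1.49) and Ndufa5 (-1.26) at the head, against a median of -0.04 for cytosolic ribosomal proteins and -0.06 for the 2231 bright genes. Mitochondrial ribosome assembly factors had a median of -0.56 there and aminoacyl-tRNA synthetases of mitochondria one of -0.28, with 1 called gene of the latter list, Sars2 (-1.07), which charges the serine tRNA. From day 56 to day 112 in LUN, 4 complex I subunits, 2 complex III subunits and 3 ATP synthase subunits were lower, with medians of -0.67, -0.87 and -0.34. The ATP synthase subunits were Atp5d (-1.13), Atp5mpl (-1.11) and Atp5o (-0.97).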

How the data were processed

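Digoxigenin-labelled cRNA was hybridised to 1-colour mouse arrays read by chemiluminescence, 3 arrays for each of 15 RNA pools. The deposited raw table holds signal intensities without scaling between arrays, and their background step is not stated in the sources at hand. The deposited log2 values were quantile normalized by the authors and served as an alternative (correlation with the recomputed values 0.9998). Their array median was 9.81 on every LON array, and 9.779 to 9.784 on the arrays of Control and LUN. The submitters' labels number the LON arrays in a single run across the ages, whereas those of Control and LUN restart in each pool. Whether LON was handled as a separate set is not stated, and this cannot be told apart from the LON diet.

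Intensities, none at or below 0, were quantile normalized over 45 arrays and log2 transformed. One mean per group was fitted to 33012 probes with limma 3.58.1 in R 4.3.3 (two-sided, Benjamini-Hochberg over all probes, threshold 0.05). For the 5-age comparisons the 15 pool means were the replicates, with age as a term. The script was tested on simulated data. Of the probes, 14411 had 1 gene symbol, 247 several and 18354 none in the annotation table, and probes with several named no gene. All 65 genes were found in the RefSeq annotation by gene ID, and promoter windows came from RefSeq, GRCm38.p6. Figures were drawn with matplotlib 3.10.9 in Python 3.11.15.

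Named genes were those called between diets, up to 4 called in each direction in other comparisons, 4 that the study lists, the 3 most and 3 least like the common course, those whose probes disagreed, and up to 3 called genes of other lists; further genes were singled out after their values were seen. Members, lists and tests were chosen with earlier results of these data known. Array numbers within a group follow the submitters' labels where these restart in each pool and otherwise the order of deposit, and do not pair arrays. The alternatives were median scaling, cyclic loess, an offset of 211.1 (the 5th percentile of normalized intensities), the authors' normalized values, only probes above the median signal, the mean of a gene's probes, only the arrays compared, the methods' t-test, a replicate block, and leaving out each array or age. Precision rests on 3 arrays a pool: the standard error of a difference between 2 groups had a median of 0.27 on the log2 scale (0.16 to 1.29).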

Additional observations from a re-analysis of the deposited data

Results flagged for a closer look

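The rise of Mrpl34 at day 21 over the mean of days 10 and 56 differed between diets by a test of the difference itself. LUN minus Control was -1.03 ± 0.20 on the log2 scale (limma adjusted p = 0.00235), from a rise of 0.87 in Control and -0.16 in LUN. The value was called under 27 of the 28 alternatives and lost with median scaling (-0.28, limma adjusted p = 0.699). Of the 28, 18 only leave out 1 array each, and the offset and the authors' values are forms of the same normalization. The tally is therefore not a count of independent checks. The 9 skeletal muscle markers were all lower in the same difference (median -4.66), and their part in it was not tested. The arrays of each group are 1 pool, so that the test does not extend to mice.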

How the results depend on the processing

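Counts are of genes called among the 65, and medians are log2 differences over them; the cause of a change was not tested. With median scaling the medians for LUN were 0.155, -0.285, 0.142, -0.175 and 0.049 at days 5, 10, 21, 56 and 112, and for LON 0.336, -0.463, -0.032, -0.647 and 0.095. They were -0.376 for the Control peak, 0.107 for the LON peak, 0.357 for the difference of the rise, and -0.52, -0.288 and 0.308 from day 56 to day 112 in Control, LUN and LON. Counts with it were 0 for LUN at days 10 and 21, LON at day 5, the LUN and LON peaks and the difference of the rise, 1 for LON at day 10 and for day 112 in LUN, and 2 for day 112 in LON. Mrpl9 turned to 0.001 in LUN at day 21 and to -0.021 at the Control peak. Cyclic loess gave counts of 2 for LUN at day 21 and LON at day 5 and 7 for LON at day 112, and a median of -0.175 from day 56 to day 112 in Control. The offset gave 2 for LUN at days 10 and 21, 6 for LON at day 112 and 5 for the LON peak. With only probes above the median signal there were 2, 3 and 1 for LUN at days 10, 21 and 112, 4, 2, 4, 11 and 9 for LON at the 5 ages, 7 for the Control and LON peaks, 4 for the difference of the rise, and 7 and 1 for day 112 in Control and LON.

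Fitting only the arrays compared gave 0 for LUN at days 10 and 21, LON at days 5, 56 and 112, the LUN peak, and day 112 in Control and LUN, 2 for the Control peak, 1 for the LON peak and 5 for the difference of the rise. The methods' t-test with adjustment gave 0 for LUN at days 10 and 21, LON at days 5, 56 and 112, and day 112 in Control and LUN, 1 for LON at day 10, 8 for the Control peak, 4 for the LUN peak and 8 for the difference of the rise. Without adjustment it gave 9, 18, 16, 7 and 5 for LUN and 14, 12, 13, 27 and 21 for LON at the 5 ages (6.49% to 13.6% of all probes in either direction), 28, 18 and 19 for the Control, LUN and LON peaks, 26 for the difference of the rise, and 14, 31 and 8 for day 112 in Control, LUN and LON (8.57% to 17.8%).

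Leaving out 1 array moved the count from 0 to 1 for LUN at days 10 and 21, 0 to 6 for LUN at day 112, 1 to 2 for LON at day 5, 0 to 8 for LON at day 56, 1 to 10 for LON at day 112, 1 to 3 for the Control peak, 1 to 2 for the LUN peak, 1 to 4 for the LON peak, and 0 to 10, 1 to 8 and 0 to 6 for day 112 in Control, LUN and LON. The medians moved from -0.264 to -0.058 for LUN at day 5, -0.171 to -0.067 for LUN at day 21, -0.219 to -0.082 for LON at day 5, -0.28 to -0.097 for LON at day 21, -0.459 to -0.23 for LON at day 112 and -0.318 to -0.111 for day 112 in Control. For LUN they turned sign at day 112 (-0.148 to 0.007) and over the 5 ages (-0.023 to 0.065), and for LON at day 10 they were -0.189 to -0.034.

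Array numbers share only a number: deviations of same-numbered arrays correlated at -0.078 to 0.102, and in 0 comparisons was every pair over 0.1. With the replicate block the count was 3 for the Control peak and 2 for day 112 in Control, Mrpl4 and Mrps2 losing the call (limma adjusted p = 0.0527 and 0.0557). The authors' normalized values, the mean of a gene's probes and leaving out each age moved no count by over 1.5 times. The t-test, the block and the fit of only the arrays compared gave no value for the comparisons over 5 ages. The smallest called difference between diets was 0.62.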
